A study of Mus musculus with 14 samples.

Results

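Interleukin-4 (IL-4) and interleukin-13 (IL-13) act through a small set of shared receptor chains and kinases, and 8 genes of that set were followed here across mouse neck skin: Il4ra, Il13ra1, Il13ra2, Il2rg, Jak1, Jak3, Tyk2 and Stat6. They were chosen by their known roles and matched by symbol, giving 8 of the 35327 gene symbols in the table, and all 8 passed the filter on low counts. The RNA was poly(A) RNA from cryosectioned whole skin, sequenced in bulk from 14 libraries, each labelled as 1 mouse and as female. The study compared skin in which Il4ra was deleted by Pdgfra-driven Cre, and skin of mice given the antibody MAR1, with their controls in a calcipotriol model of allergic skin inflammation.

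Every treated mouse received MC903 (calcipotriol, a vitamin D analogue that provokes type 2 inflammation) on the shaved neck, 1 nmol in 100 µL each day for 6 days. The cKO group held 3 mice of strain C57BL/6J Pdgfra-CRE/Il4rafl/fl, and the fl/fl group 3 mice of strain C57BL/6J Il4rafl/fl without the Cre. Both were 6 to 7 weeks old and had no injections, so the floxed allele was common to both. The MAR1 and isotype groups held 3 C57BL/6J mice each, 6 weeks old, injected intraperitoneally with 20 µg of MAR1 or of an isotype control every other day. There were 3 injections before MC903 began, and injections went on during it. MAR1 is known as a clone against the alpha chain of the high-affinity IgE receptor, carried by basophils and mast cells. The untreated group held 2 libraries of 6-week-old C57BL/6J skin whose names differ in a suffix only. Whether these came from separate mice, and whether they received vehicle, is not stated. Their counts differed beyond sampling noise (chi-square per degree of freedom 304.4), as in every other pair of libraries within a group (17.32 to 984.9). This value cannot tell separate mice from separate libraries of the same mouse. Pdgfra-Cre acts in Pdgfra-expressing cells such as fibroblasts, so the other cells in whole skin keep Il4ra. Which exons are floxed is not given in the sources used here.

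IL-4 binds the alpha chain encoded by Il4ra, which pairs either with the common gamma chain encoded by Il2rg (the type I receptor, found mainly on blood-derived cells) or with the chain encoded by Il13ra1 (the type II receptor, also on fibroblasts and keratinocytes). IL-13 signals through the type II receptor only. Jak1 is the kinase on the alpha chain, Jak3 the kinase on the gamma chain and Tyk2 a kinase on the Il13ra1 chain, and together they lead to phosphorylation of the transcription factor STAT6. Il13ra2 encodes a chain that binds IL-13 with high affinity and has a short cytoplasmic tail without a docking site for these kinases, and it is known as a decoy.

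The promoters of Il4ra and Il13ra2 are shown because these receptor genes moved in opposite directions in cKO skin. Il4ra is the gene targeted in the cKO, and no link between these sequences and the changes was tested. Each is the stretch of 250 bases before the gene's start in RefSeq on GRCm38.p6, read 5′ to 3′ on the gene's strand, at chr7:125552021-125552270 (plus strand) for Il4ra and at chrX:147429193-147429442 (minus strand) for Il13ra2. Capitals mark ATGNAAAT in Il4ra and TATAAA in Il13ra2.
Il4ra: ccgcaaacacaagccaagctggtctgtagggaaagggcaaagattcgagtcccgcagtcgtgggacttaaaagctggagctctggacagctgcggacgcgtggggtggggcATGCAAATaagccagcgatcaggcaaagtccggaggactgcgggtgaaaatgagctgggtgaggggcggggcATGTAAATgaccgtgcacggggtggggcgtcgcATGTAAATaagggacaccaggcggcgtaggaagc
Il13ra2: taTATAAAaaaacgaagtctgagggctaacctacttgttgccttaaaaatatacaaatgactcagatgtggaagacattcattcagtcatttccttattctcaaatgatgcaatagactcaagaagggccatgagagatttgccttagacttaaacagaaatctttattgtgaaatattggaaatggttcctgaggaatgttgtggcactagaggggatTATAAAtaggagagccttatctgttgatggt

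Il4ra had 3 matches to ATGNAAAT, starting 139, 67 and 34 bases before the start. Il13ra2 had 2 matches to TATAAA, starting 248 and 31 bases before the start. Searched on both strands, ATGNAAAT was in 5.03% and TATAAA in 12.4% of 32851 mouse promoters of the same length. Both strings were picked after the sequences had been seen. The Il4ra stretch held 17 CpG dinucleotides at 59.6% GC and that of Il13ra2 held 1 at 36.0% GC, beside medians of 6 and 52.4% over all promoters. TTCNNNNGAA and TTCNNNGAA, the spacings known for STAT6 and for other STAT proteins, were in none of the 8 members' stretches and in 5.85% and 7.02% of all promoters. The absence says only that these letters are not in this window.

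Libraries differed in depth and content. Their totals were 16465022 to 30811610 estimated counts in cKO, 45120167 to 47996020 in fl/fl, 5728994 to 10582112 in MAR1, 34312366 to 35580225 in isotype and 37499208 to 55291558 in untreated skin. The 1715 olfactory and vomeronasal receptor genes, typical of sensory neurons, were taken as a gauge of reads from outside expressed genes. They took 3.87% to 9.36% of counts in MAR1 libraries, against 0.269% to 0.438% in isotype libraries. They took 0.466% to 2.58% in cKO, against 0.0479% to 0.0767% in fl/fl libraries. The source of these counts was not tested. Summed B cell markers (6 genes) spanned 11.4 to 47.2 CPM (counts scaled to a common library size) in cKO libraries, against 1260 in the highest and 1.87 in the lowest fl/fl library. Salivary gland markers (3 genes) were all at 0 in cKO skin, against 16900, 1090 and 0.118 CPM in fl/fl libraries 2, 1 and 3. The Y-linked gene Ddx3y stood at 69.9 CPM in cKO library 1, labelled female, against at most 0.781 CPM in any other library. The fibroblast and keratinocyte markers that define skin were detected in all groups. Levels below are in CPM after trimmed-mean (TMM) scaling, tests are edgeR quasi-likelihood tests over 20939 genes with Benjamini-Hochberg adjustment, and "called" means an adjusted p under 0.05.

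**Figure D1:**
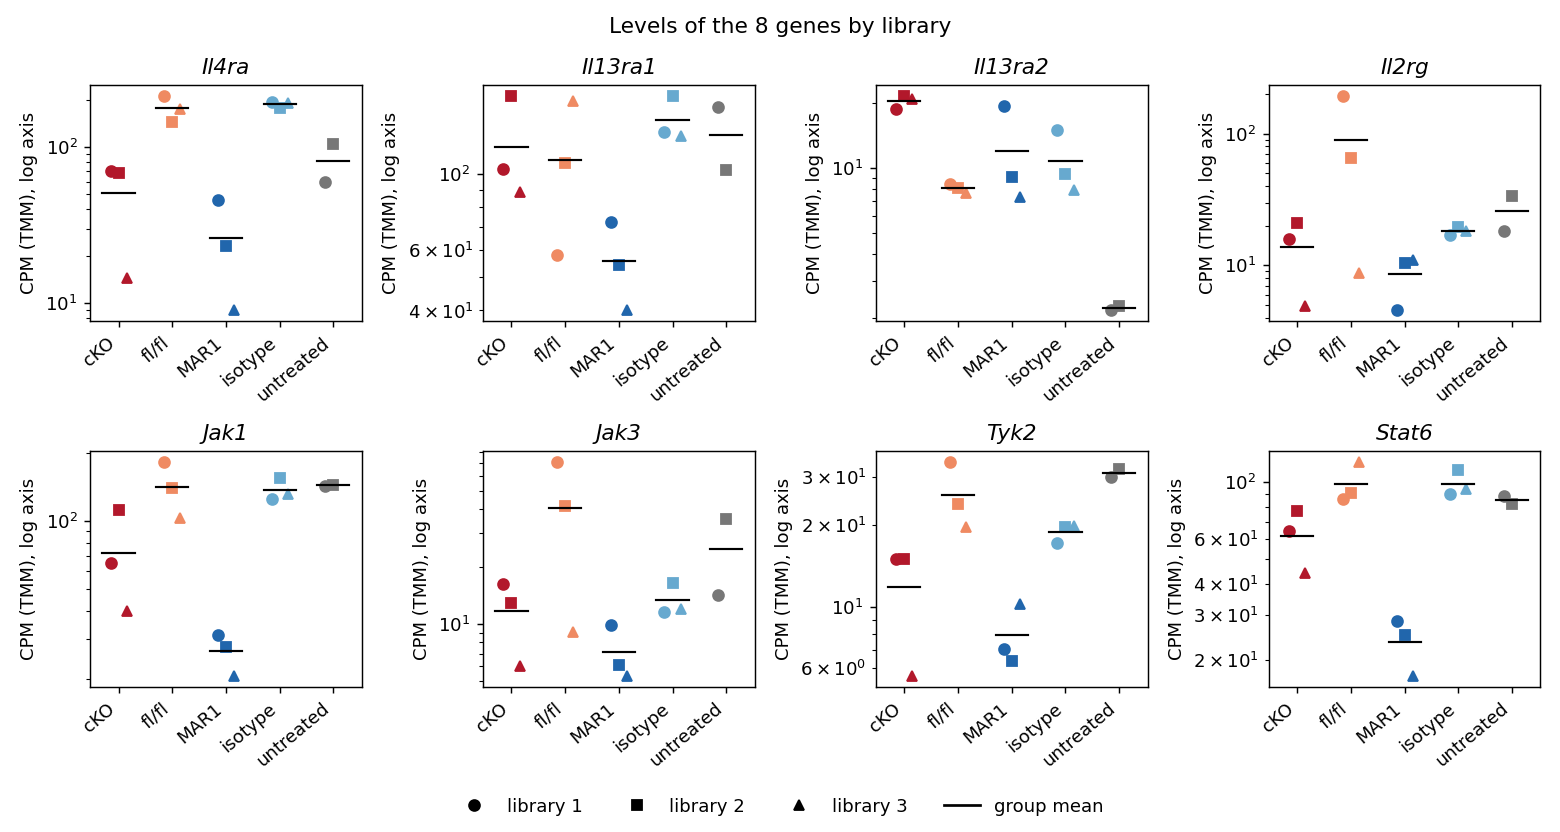
Levels of the 8 genes in each library (CPM after TMM scaling, log axis), with a panel for each gene and the groups cKO, fl/fl, MAR1, isotype and untreated on the x axis; points are libraries and bars are group means. Il4ra lies lower in every cKO and MAR1 library than in every fl/fl and isotype library, and Il13ra2 lies near 2.2 CPM in the untreated libraries and above 7 CPM in all others.

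Il4ra, the chain common to both receptors and the gene targeted in the cKO, was lower in cKO skin than in fl/fl skin. Its level was 70.7, 67.8 and 14.5 CPM in the cKO libraries, against 214, 146 and 176 CPM in the fl/fl libraries. All 3 cKO libraries lay below all 3 fl/fl libraries, and cKO library 3 lay far below the other 2. The difference was -1.81 ± 0.57 on the log2 scale (SE, n = 3 each; adjusted p = 0.043). The call was lost when any 1 cKO or fl/fl library was left out, with estimates of -2.12 to -1.33 over all leave-outs. It was also lost without MAR1 library 2, without any 1 isotype library and without untreated library 2 (adjusted p of 0.059 to 0.12). Omitting cKO library 1, the estimate stood at -2.12 (adjusted p = 0.053). In these bulk samples, fewer cells of a type and less RNA per cell cannot be told apart, and the count covers the whole gene, deleted exons or not.

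In MAR1-treated skin Il4ra was also lower than in its control. Its level was 45.8, 23.3 and 8.95 CPM in the MAR1 libraries, against 196, 179 and 193 CPM in the isotype libraries. The groups did not overlap. The difference was -2.86 ± 0.60 (adjusted p = 0.0020), and it passed the threshold under all 24 alternatives, with adjusted p of 7.8e-05 to 0.015. The change in the cKO was 1.05 ± 0.79 log2 units smaller than that under MAR1, which did not pass the test (adjusted p = 0.40).

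The untreated libraries stood at 59.4 and 105 CPM for Il4ra, below every isotype and fl/fl library. The log2 differences were 1.21 ± 0.65 for isotype (adjusted p = 0.34) and 1.12 ± 0.65 for fl/fl (adjusted p = 0.37), neither past the threshold. With only the isotype and untreated libraries in the fit, the first difference was 1.18 and was called (adjusted p = 0.026). Every MAR1 library and 1 of the cKO libraries lay below both untreated libraries, a comparison that was not tested.

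Il13ra1, the partner of Il4ra in the type II receptor, was called lower under MAR1 and was not called in the cKO. It stood at 103, 168 and 88.5 CPM in cKO skin, against 58.0, 108 and 164 CPM in fl/fl skin. These groups overlapped, and the log2 difference was 0.13 ± 0.38 (adjusted p = 0.85). It stood at 72.4, 54.3 and 40.02 CPM in MAR1 skin, against 132, 169 and 129 CPM in isotype skin. These groups did not overlap, and the difference was -1.37 ± 0.39 (adjusted p = 0.011). Under another scaling (relative log expression, RLE) the MAR1 call was lost (-0.81, adjusted p = 0.070), as it was without MAR1 library 3 (-1.17, adjusted p = 0.051). The difference between the cKO and MAR1 effects was 1.495 ± 0.54 and did not pass the test (adjusted p = 0.092). Untreated skin held 157 and 103 CPM, within the range of the isotype and fl/fl libraries together.

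Il13ra2, the decoy chain, was higher in MC903-treated skin than in untreated skin and higher again in the cKO. It stood at 14.96, 9.40 and 7.89 CPM in isotype skin, against 2.18 and 2.28 CPM in untreated skin. The groups did not overlap, and the log2 difference was 2.27 ± 0.48, a 4.81-fold higher level (adjusted p = 0.025). It was the only member called there, 1 of 8, beside 3.08% of all genes tested in either direction and 1.35% called higher. Without overlap, 3 members lay higher in isotype skin (Il4ra, Il13ra2 and Stat6), beside 26.2% of all genes, and Tyk2 lay lower, beside 22.6%. The call was lost without any 1 of the 5 libraries compared (1.95 to 2.77 over all leave-outs), while the direction held in each. In fl/fl skin Il13ra2 stood at 8.41, 8.08 and 7.68 CPM, and its difference from untreated skin, 1.85 ± 0.47, did not pass the test (adjusted p = 0.067).

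In cKO skin Il13ra2 stood at 18.7, 21.6 and 20.9 CPM, against 8.41, 8.08 and 7.68 CPM in fl/fl skin. Both groups were tight and far apart. The level was 2.53-fold higher, a log2 difference of 1.34 ± 0.40 (adjusted p = 0.033). Leaving out cKO library 1, cKO library 3 or fl/fl library 2 moved the adjusted p to 0.054, 0.081 and 0.080, with estimates of 1.40, 1.32 and 1.34. With fl/fl libraries 1 and 2 both omitted, the value became 1.71 (adjusted p = 0.13). Under MAR1, Il13ra2 stood at 19.3, 9.06 and 7.36 CPM, against 14.96, 9.40 and 7.89 CPM in isotype skin. Here the groups overlapped, and the difference was 0.15 ± 0.40 (adjusted p = 0.76). The 2 effects on Il13ra2 differed by 1.19 ± 0.56, which did not pass the test (adjusted p = 0.17).

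The balance of the receptor chains was also read as a ratio of counts within each library, which no scaling between libraries can move. These ratios were chosen after the levels had been seen. Il13ra2 counts per 100 Il4ra counts were 26.5, 31.9 and 144 in cKO skin, against 3.92, 5.56 and 4.36 in fl/fl skin. They were 42.2, 39.0 and 82.3 in MAR1 skin, against 7.64, 5.27 and 4.09 in isotype skin, and 3.67 and 2.18 in untreated skin. No cKO or MAR1 library came near its controls. In MAR1 library 3 the ratio rested on 49 Il13ra2 and 59.5 Il4ra counts. The part of reads from outside expressed genes in these ratios was not tested. The geometric means differed 10.9-fold between cKO and fl/fl and 9.37-fold between MAR1 and isotype. The exact two-sided permutation p was 0.1 for each, the smallest that 3 against 3 can give. In the cKO this outcome was fixed beforehand, since Il4ra lay lower and Il13ra2 higher without overlap. Under MAR1 Il13ra2 differed by 0.15 only, so the ratio chiefly restates the lower Il4ra. The p-values of these ratios are therefore descriptive and add nothing to the levels.

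Il4ra counts per 100 Il13ra1 counts, which set the alpha chain against its type II partner, were 68.5, 40.3 and 16.4 in cKO skin, against 370, 135 and 107 in fl/fl skin. They were 63.2, 42.8 and 22.4 in MAR1 skin, against 148, 106 and 150 in isotype skin. Neither pair of groups overlapped, with geometric means 4.91-fold and 3.38-fold lower in cKO and MAR1 skin (exact two-sided permutation p = 0.1 each). Untreated skin held 37.8 and 102. Il13ra2 per 100 Il13ra1 was 26.7, 16.7 and 18.4 in MAR1 skin, against 11.3, 5.56 and 6.12 in isotype skin, with no overlap (exact permutation p = 0.1). In cKO skin it was 18.1, 12.9 and 23.6, against 14.5, 7.49 and 4.69 in fl/fl skin, which overlapped (exact permutation p = 0.2). Il4ra per 100 Stat6 was 161, 92.8 and 51.8 in MAR1 skin, against 218, 160 and 204 in isotype skin. These overlapped (exact permutation p = 0.2), while cKO lay below fl/fl skin without overlap (exact permutation p = 0.1). Jak3 per 100 Jak1 lay higher without overlap in MAR1 than in isotype skin (exact permutation p = 0.1). It overlapped between cKO and fl/fl skin (exact permutation p = 0.7). Il2rg per 100 Jak3 overlapped in both comparisons.

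**Figure D2:**
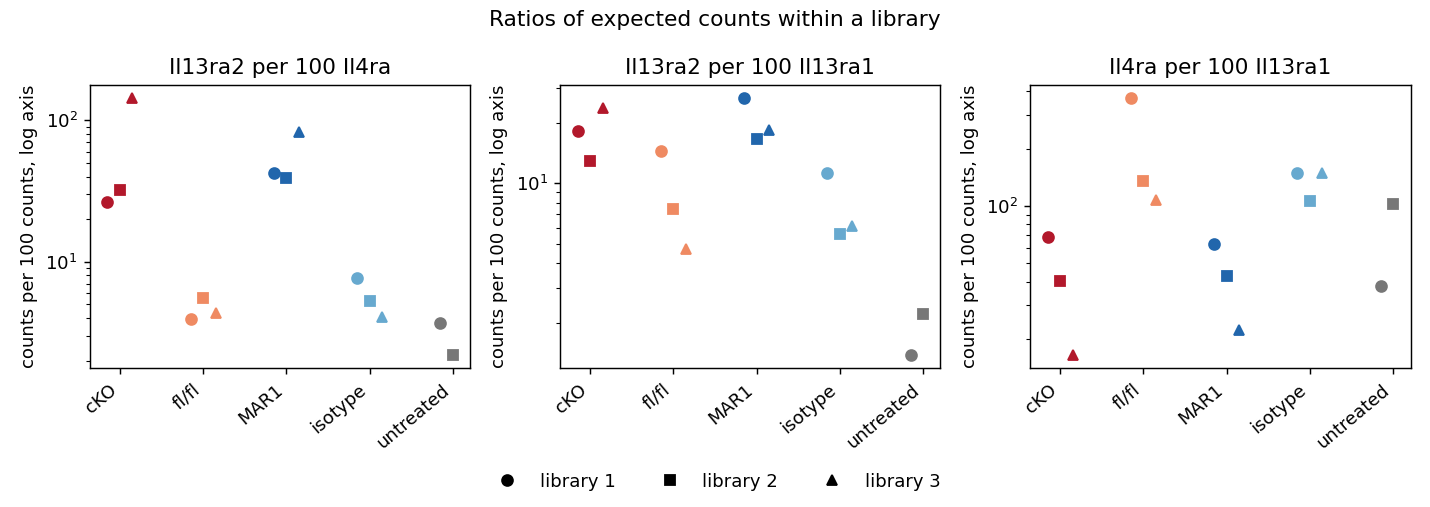
Ratios of estimated counts between receptor genes within each library (log axis) in 3 panels, by group, with a point for each library and its number shown by the marker. The Il13ra2 to Il4ra ratio lies above 26 per 100 in all cKO and MAR1 libraries and below 8 per 100 in all fl/fl, isotype and untreated libraries.

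Il2rg, the common gamma chain, was set apart by the spread of the fl/fl libraries. It stood at 15.8, 20.9 and 4.89 CPM in cKO skin, against 194, 65.0 and 8.69 CPM in fl/fl skin. The groups overlapped, since fl/fl library 3 lay below 2 of the cKO libraries. The log2 difference of -2.68 ± 0.83 was called (adjusted p = 0.040) but was -1.03 without fl/fl library 1 (adjusted p = 0.33) and 0.96, the other sign, without fl/fl libraries 1 and 2 (adjusted p = 0.44). The call was also lost without cKO library 1, 2 or 3, fl/fl library 2, MAR1 library 2, any 1 isotype library or untreated library 2.

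Jak3, the kinase that works with the gamma chain, spread in the same order over the fl/fl libraries, at 71.2, 41.8 and 9.05 CPM, beside 16.3, 12.9 and 6.00 CPM in cKO skin. Its difference was -1.79 ± 0.61 and did not pass the test (adjusted p = 0.056), though it did without fl/fl library 3 (-1.89, adjusted p = 0.019). With fl/fl libraries 1 and 2 omitted, the value became 0.66 (adjusted p = 0.56). Summed T and B cell marker levels (14 genes) were 2340, 424 and 11.2 CPM in fl/fl libraries 1, 2 and 3, beside 98.7, 52.6 and 143 CPM in the cKO libraries. Lymphocytes are known to express both genes, and the part of lymphocyte content in these differences was not tested.

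Under MAR1, Il2rg stood at 4.55, 10.5 and 10.97 CPM, against 17.0, 19.6 and 18.3 CPM in isotype skin. Jak3 stood at 9.83, 6.11 and 5.31 CPM, against 11.5, 16.4 and 12.1 CPM in isotype skin. Neither pair of groups overlapped, yet neither difference passed the test, at -1.09 ± 0.80 for Il2rg (adjusted p = 0.27) and -0.91 ± 0.61 for Jak3 (adjusted p = 0.22). With only the MAR1 and isotype libraries in the fit, Il2rg was called (-0.99, adjusted p = 0.029). Summed T and B cell markers were 219, 349 and 494 CPM in MAR1 skin, against 40.3, 26.2 and 37.4 CPM in isotype skin. Between fl/fl and isotype skin, which share MC903 but not injections or genotype, Il2rg differed by 2.29 ± 0.82 (adjusted p = 0.11) and Jak3 by 1.61 ± 0.61 (adjusted p = 0.13). None of the 8 genes was called between these control groups, beside 5.22% of all genes, and none lay apart without overlap, beside 32.5%. By an unadjusted p under 0.05 there were 2 with edgeR, beside 5079 of all genes. DESeq2 called 2 (Il2rg and Jak3), among 3396 genes in all, against 1094 genes with edgeR. Without fl/fl library 3 both were called, with 2.44 for Il2rg (adjusted p = 0.020) and 1.70 for Jak3 (adjusted p = 0.036). That fit called 3176 genes in all.

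**Figure D3:**
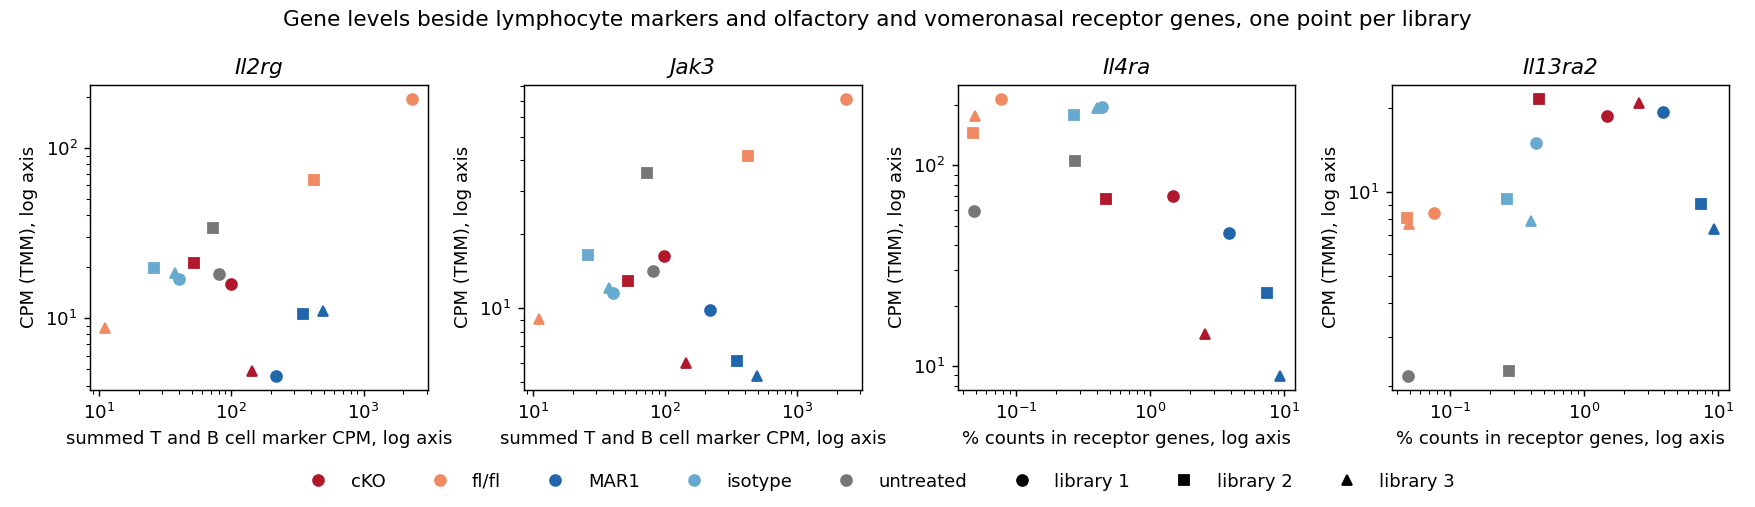
Il2rg and Jak3 levels against summed T and B cell marker levels, and Il4ra and Il13ra2 levels against the percentage of counts in olfactory and vomeronasal receptor genes (all axes logarithmic), with a point for each of 14 libraries, coloured by group. The fl/fl libraries 1 and 2 hold the highest Il2rg and Jak3 levels and marker sums of 2340 and 424 CPM, while the 3 MAR1 libraries hold receptor shares of 3.87% to 9.36%.

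Jak1, the kinase bound to the Il4ra chain, was lower under MAR1. It stood at 31.5, 27.9 and 20.6 CPM in MAR1 skin, against 125, 155 and 132 CPM in isotype skin. The groups were far apart, with a log2 difference of -2.36 ± 0.37 (adjusted p = 0.00038). In cKO skin it stood at 65.3, 112 and 39.9 CPM, against 183, 140 and 103 CPM in fl/fl skin. These groups overlapped, and the difference of -0.97 ± 0.35 did not pass the test (adjusted p = 0.067).

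Tyk2, the kinase of the type II receptor's second chain, was among the lowest members. It stood at 7.05, 6.35 and 10.3 CPM in MAR1 skin, against 17.2, 19.6 and 19.8 CPM in isotype skin. The groups did not overlap and the difference was -1.26 ± 0.39 (adjusted p = 0.016). The call was lost under RLE scaling (-0.64, adjusted p = 0.18), without the untreated libraries (-0.79, adjusted p = 0.11) and without MAR1 library 2 (-1.08, adjusted p = 0.068). In cKO skin it stood at 15.1, 15.1 and 5.60 CPM, against 34.0, 23.8 and 19.6 CPM in fl/fl skin. These did not overlap either, but the difference of -1.11 ± 0.38 missed the threshold (adjusted p = 0.056).

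Stat6, the transcription factor at the end of the pathway, had the smallest standard error of the 8 genes in the comparison of MAR1 with isotype skin. It stood at 28.5, 25.1 and 17.3 CPM in MAR1 skin, against 89.8, 112 and 94.5 CPM in isotype skin. The difference was -2.06 ± 0.29 (adjusted p = 0.00028), and the calls of Stat6 and Jak1 both held under all 24 alternatives. In cKO skin Stat6 stood at 64.1, 77.0 and 44.2 CPM, against 85.8, 90.6 and 121 CPM in fl/fl skin. These groups did not overlap, and the difference of -0.68 ± 0.28 did not pass the test (adjusted p = 0.099). Untreated skin held 88.7 and 82.1 CPM, and the differences of isotype and fl/fl skin from it were 0.21 ± 0.31 each, neither past the threshold (adjusted p = 0.76 and 0.81).

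The change of Stat6 was larger under MAR1 than in the cKO: their difference was 1.38 ± 0.39 (adjusted p = 0.048). It was the only 1 of the 8 genes called in this test of the difference, beside 7.96% of all genes in either direction and 6.14% with a positive difference. The call was lost under RLE scaling (0.92, adjusted p = 0.099) and without cKO library 1, fl/fl library 2, MAR1 library 3, any isotype library or untreated library 1, with estimates of 1.19 to 1.92 over all leave-outs. All genes had a median of 0.41 in this test, and -0.05 under RLE scaling.

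Counted together, 5 of the 8 genes (62.5%) were called lower and none higher between MAR1 and isotype skin, beside 26.5% of all genes called lower and 49.0% called in either direction. Without overlap, 7 of 8 lay lower in MAR1 skin, beside 36.4% of all genes. The median log2 difference was -1.31 for the 8 genes and 0.00 for all genes. RLE scaling moved the median of all genes to 0.57, and 3 members were then called (Il4ra, Jak1 and Stat6), as with DESeq2. With all libraries thinned to the total of the shallowest, 5 were called. Over the alternatives other than single leave-outs, 9530 to 12222 genes were called in all, against 10270 in the main fit.

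Between cKO and fl/fl skin, 3 of 8 (37.5%) were called, beside 18.7% of all genes: Il13ra2 higher, beside 12.7% of all genes, and Il4ra and Il2rg lower, beside 5.97%. Il4ra, Tyk2 and Stat6 lay lower without overlap (12.4% of all genes) and Il13ra2 higher (17.0%). The medians were -1.04 for the 8 genes and 0.03 for all genes. Leaving out cKO library 1, cKO library 3 or fl/fl library 2 left 0 calls, and leaving out cKO library 2 or fl/fl library 1 left 1. DESeq2 called 7, all but Il13ra1, and 5994 genes in all, against 3906 genes with edgeR. Between fl/fl and untreated skin 0 were called by edgeR, beside 1.72% of all genes. By an unadjusted p under 0.05 there was 1, beside 3837 of all genes. DESeq2 called 1 (Il13ra2), among 2124 genes in all, against 360 genes with edgeR. Il4ra and Il13ra2 lay higher without overlap, 2 of 8, beside 12.6% of all genes.

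**Figure D4:**
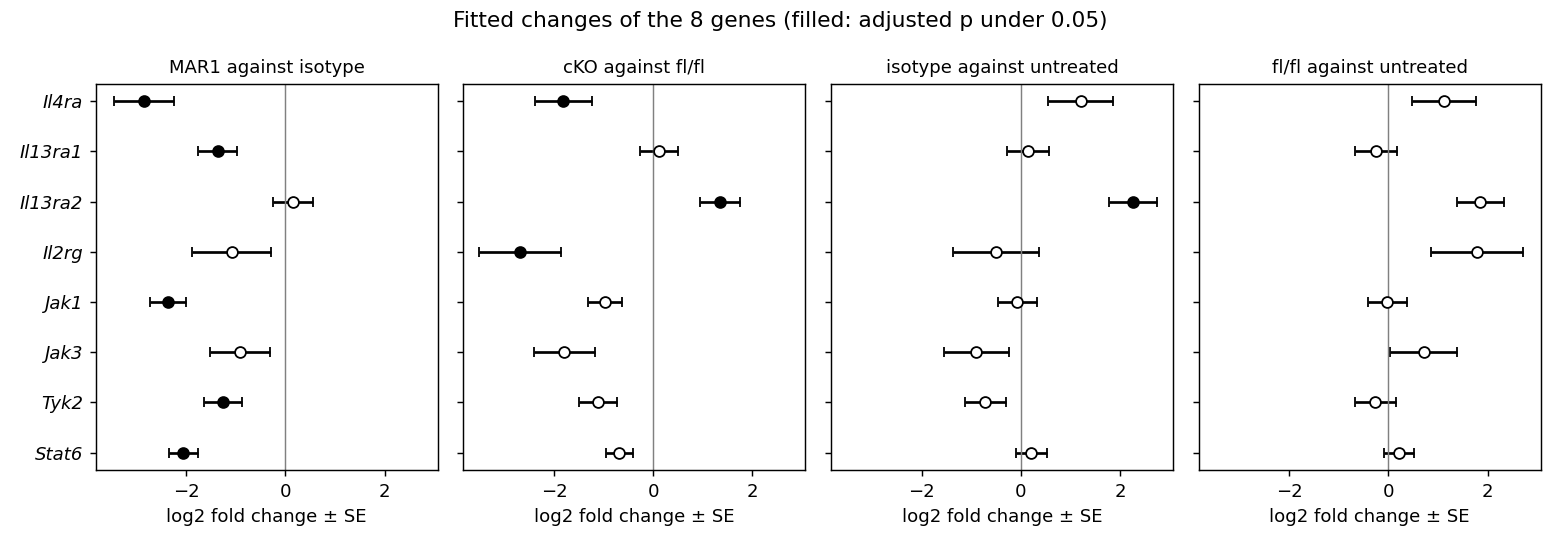
Log2 fold changes of the 8 genes (points, with bars of 1 SE) in the comparisons of MAR1 with isotype, cKO with fl/fl, and isotype and fl/fl with untreated skin; filled points passed the test at an adjusted p under 0.05. Il4ra lies below 0 under both interventions (-1.81 and -2.86), while Il13ra2 lies at 1.34 in the cKO and at 2.27 between isotype and untreated skin.

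Marker genes of other cells differed between these groups, some lists higher and some lower, and some lists overlapped. Summed macrophage markers (6 genes) spanned 223 to 525 CPM in cKO skin, against 810 to 1760 CPM in fl/fl skin. They spanned 87.8 to 243 CPM in MAR1 skin, against 848 to 984 CPM in isotype skin. Fibroblast markers (8 genes) spanned 1550 to 5410 CPM in cKO skin, against 2140 to 7340 CPM in fl/fl skin, and 1040 to 1610 CPM in MAR1 skin, against 3650 to 4330 CPM in isotype skin. Keratinocyte markers (6 genes) spanned 3250 to 6640 CPM in MAR1 skin, against 19100 to 37000 CPM in isotype skin. Endothelial markers (4 genes) spanned 951 to 1300 CPM in MAR1 skin, against 236 to 253 CPM in isotype skin, and 276 to 533 CPM in cKO skin, against 87.9 to 229 CPM in fl/fl skin. Neutrophil markers (3 genes) spanned 315 to 579 CPM in MAR1 skin, against 31.1 to 44.0 CPM in isotype skin, and 42.8 to 172 CPM in cKO skin, against 15.4 to 41.2 CPM in fl/fl skin. Basophil and mast cell markers (6 genes) spanned 310 to 412 CPM in MAR1 skin, against 268 to 329 CPM in isotype skin, with overlap. In cKO skin they spanned 203 to 233 CPM, against 82.9 to 158 CPM in fl/fl skin. Skeletal muscle markers (5 genes) spanned 16.4 to 2440 CPM in cKO skin, against 8960 to 53200 CPM in fl/fl skin. Mitochondrially encoded genes took 0.129% to 0.344% of counts in MAR1 libraries, against 2.12% to 2.33% in isotype libraries, and 0.477% to 2.61% in cKO libraries, against 2.28% to 4.18% in fl/fl libraries. The part of cell content, of depth, of the mitochondrial share and of the share of counts in receptor genes in the lower Il4ra, Jak1 and Stat6 levels was not tested.

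Levels of different genes were compared per kilobase of the longest protein-coding transcript. In isotype skin Il13ra1 (38.6 ± 6.0 CPM per kilobase) and Il4ra (36.0 ± 1.7) were highest, the Il4ra mean lying within 1 SD of the Il13ra1 mean but not the reverse (n = 3). Jak1 (27.97 ± 3.17) and Stat6 (26.2 ± 3.1) followed, each within 1 SD of the other. Il2rg (10.97 ± 0.77) and Il13ra2 (4.7 ± 1.6) lay lower, and Tyk2 and Jak3 (3.3 ± 0.7) at the bottom. In untreated skin Il13ra1 led at 35.0, Il4ra ranked 4 at 15.6, and Il13ra2 was lowest at 0.98 (n = 2). In cKO skin the order began with Il13ra1 (32.3 ± 11.4) and Stat6 (16.4 ± 4.4), and Il4ra (9.7 ± 6.0) and Il13ra2 (9.0 ± 0.7) came close together, the Il13ra2 mean lying within 1 SD of the Il4ra mean but not the reverse. Il13ra2 was the lowest of the 8 in fl/fl skin (3.5 ± 0.2), and Il4ra ranked 6 in MAR1 skin (4.9 ± 3.5).

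Likeness of pattern was measured as the root mean square difference of centred log2 CPM over 14 libraries, among 12696 genes. Among the members, Jak1 and Stat6 were the closest pair (0.36), Il2rg and Jak3 differed by 0.61, and the most unlike pair was Il13ra2 and Il2rg (1.93). Outside the 8, Nmt1 (0.13) and Tmed2 (0.15) lay nearest to Stat6, Rnf217 (0.16) and Acbd3 (0.17) to Il13ra1, and Usp24 and Mapk9 (0.21 each) to Jak1. Ap2b1 (0.25) and Zfp592 (0.27) lay nearest to Tyk2, Helz2 (0.30) and Ly6c2 (0.48) to Il2rg, and Atp2a3 (0.34) and Cnp (0.36) to Jak3. Msmo1 (0.36) and Cdk1 (0.40) lay nearest to Il13ra2, and Kcne4 (0.42) and Ms4a6b (0.46) to Il4ra. All genes share the libraries' depth and composition.

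The ligands themselves were near the lower limit of detection. Il4 stood at 1.31, 1.01 and 1.24 CPM in cKO skin, against 0.85, 0.33 and 0.30 CPM in fl/fl skin. It stood at 1.83, 1.41 and 0.75 CPM in MAR1 skin, against 1.285, 0.78 and 0.29 CPM in isotype skin, with overlap. Untreated skin held 1.54 and 1.19 CPM. These levels rested on 5 to 87 estimated counts in a library. Il13 did not exceed 1.09 CPM in any library. Neither gene was called in any comparison by edgeR, with none at an unadjusted p under 0.05, nor under any alternative, DESeq2 included.

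Of 7 chains that pair with Il2rg or its relatives, 1 was called higher and 2 lower under MAR1, beside 49.0% of all genes in either direction. The count of 3 was 2 to 5 with 1 library left out, with 5 without fl/fl library 3. Il2ra, the alpha chain of the IL-2 receptor, stood at 197, 260 and 288 CPM in MAR1 skin, against 18.9, 12.1 and 19.4 CPM in isotype skin (log2 difference 3.89 ± 1.06, adjusted p = 0.010). Crlf2, the receptor chain for TSLP, stood at 1.03, 0.20 and 0 CPM in MAR1 skin, against 22.9, 19.9 and 26.3 CPM in isotype skin (-5.63 ± 0.87, adjusted p = 0.00040). Il15ra was the other one called lower (-1.21 ± 0.35, adjusted p = 0.013). In the cKO, Il21r (-5.77 ± 1.48, adjusted p = 0.017) and Il2rb (-3.16 ± 0.85, adjusted p = 0.022) were called lower, both with overlapping groups, beside 5.97% of all genes. The count of 2 was 0 without cKO library 2 or cKO library 3, and 1 without fl/fl library 1. Il2rb stood at 5.07, 4.54 and 4.005 CPM in cKO skin, against 91.8, 27.7 and 2.25 CPM in fl/fl skin, the order of the lymphocyte markers.

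Of 7 other JAK and STAT genes, Jak2 (-2.09 ± 0.36, adjusted p = 0.00061) and Stat5b (-0.81 ± 0.31, adjusted p = 0.047) were called lower under MAR1, beside 26.5% of all genes, and the count was 1 to 4 with 1 library left out. Stat4, which acts downstream of IL-12, was called lower in the cKO (-3.93 ± 1.18, adjusted p = 0.033), with overlapping groups, beside 5.97% of all genes. No gene of the list was called there without cKO library 1, 2 or 3, fl/fl library 1, MAR1 library 2 or untreated library 2. Of 15 adaptors and negative regulators, 7 were called lower and 1 higher under MAR1, beside 49.0% of all genes in either direction, and 7 lower and none higher in the cKO, beside 5.97% of all genes called lower. The MAR1 count was 8 to 9 with any 1 library left out. The cKO count was 4 without cKO library 1, 3 without cKO library 3, 3 without fl/fl library 1, 4 without MAR1 library 2, 4 without untreated library 2 and 0 without fl/fl libraries 1 and 2. Ptpn1, a phosphatase of JAK kinases, differed by -3.19 ± 0.48 under MAR1 (adjusted p = 0.00034) and by -1.83 ± 0.45 in the cKO (adjusted p = 0.013). Socs3, a feedback inhibitor of cytokine receptors, differed by -2.91 ± 0.52 (adjusted p = 0.00078) and by -1.63 ± 0.49 (adjusted p = 0.034). Cish, another member of that family, stood at 14.8, 13.6 and 5.96 CPM in cKO skin, against 58.7, 42.8 and 37.0 CPM in fl/fl skin (-2.01 ± 0.40, adjusted p = 0.0052). Irs2, an adaptor of the Il4ra chain, differed by -2.25 ± 0.40 under MAR1 (adjusted p = 0.00078). Grb2, an adaptor of receptor tyrosine kinases, differed by -1.78 ± 0.32 in the cKO (adjusted p = 0.0036). Socs1, a JAK inhibitor, differed by -2.11 ± 0.59 in the cKO (adjusted p = 0.026), with overlapping groups. Its level was 10.99, 11.35 and 4.65 CPM in cKO skin, against 74.9, 32.5 and 9.16 CPM in fl/fl skin, the order of the lymphocyte markers. Pik3r1, a phosphoinositide 3-kinase subunit, was the only 1 of the 15 called in MC903-treated controls against untreated skin. It differed by -1.18 ± 0.27 in isotype skin (adjusted p = 0.032), beside 3.08% of all genes called in either direction. In fl/fl skin it differed by -1.59 ± 0.27 (adjusted p = 0.012), beside 1.72% of all genes. In isotype skin this call was lost when any 1 isotype or untreated library, cKO library 2, fl/fl library 1 or MAR1 library 2 was left out. The median log2 differences of the 15 genes were -0.57 under MAR1 and -0.93 in the cKO.

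Genes known to be induced through STAT6 did not move one way. Of 19, 4 were called higher and 4 lower under MAR1, with a median of -0.10, beside 49.0% of all genes called in either direction. The count of 8 was 5 without isotype library 2, and 5 to 10 over all leave-outs. Chil3, a chitinase-like protein of IL-4-stimulated macrophages, differed by -4.04 ± 0.62 (adjusted p = 0.00037), and Pparg, a nuclear receptor, by -2.32 ± 0.36 (adjusted p = 0.00041). Gata3, the T helper 2 transcription factor that is also expressed in keratinocytes, stood at 172, 181 and 189 CPM in MAR1 skin, against 33.5, 33.0 and 26.4 CPM in isotype skin (2.55 ± 0.43, adjusted p = 0.00055). Arg1, which encodes arginase 1, stood at 5.92, 3.52 and 1.05 CPM in MAR1 skin, against 186, 193 and 112 CPM in isotype skin (-5.51 ± 1.14, adjusted p = 0.0021).

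In the cKO, 1 of the 19 was called higher (Gata3, 1.35 ± 0.41, adjusted p = 0.036) and 3 lower, with a median of -0.99, beside 18.7% of all genes called in either direction. The count of 4 was 1 without cKO library 2, cKO library 3 or fl/fl library 1, and 2 without cKO library 1 or any 1 isotype library. Chil3 differed by -1.84 ± 0.57 (adjusted p = 0.038), and Ccl22 (-3.90 ± 0.97, adjusted p = 0.016) and Fcer2a (-7.58 ± 1.95, adjusted p = 0.018) had overlapping groups. Fcer2a, the low-affinity IgE receptor of B cells, averaged 0.14 CPM in cKO skin and 27.2 CPM in fl/fl skin. Between isotype and untreated skin 2 were called higher and 3 lower, beside 3.08% of all genes in either direction. The count of 5 was 2 without any 1 isotype library or untreated library 1, 3 without untreated library 2 or MAR1 library 2, and 0 with the untreated libraries summed. Tnc, a matrix protein, differed by 5.57 ± 0.84 (adjusted p = 0.0054), Chil3 by 5.43 ± 0.79 (adjusted p = 0.0047), Gata3 by -2.28 ± 0.45 (adjusted p = 0.018) and Mgl2 by -3.14 ± 0.63 (adjusted p = 0.020). Retnla, a secreted product of IL-4-stimulated macrophages, differed by -6.38 ± 1.36 (adjusted p = 0.027). In fl/fl against untreated skin Tnc was called higher (4.58 ± 0.79, adjusted p = 0.013) and Gata3 lower (-1.91 ± 0.45, adjusted p = 0.047), beside 1.72% of all genes, and leaving out 1 library gave 0 to 3 calls.

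**Figure D5:**
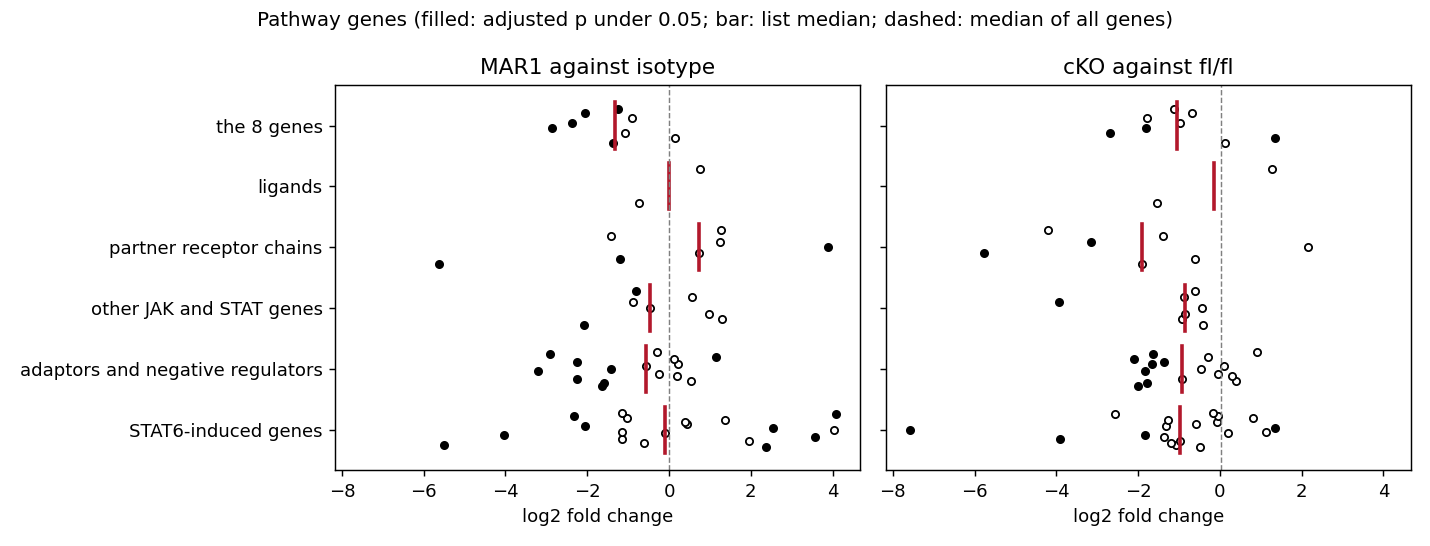
Log2 fold changes of the listed pathway genes, grouped by list, for MAR1 against isotype and for cKO against fl/fl; filled points passed the test at an adjusted p under 0.05, red bars are list medians and dashed lines the medians of all genes. In the adaptor and negative regulator list the called genes lie below 0 in both comparisons except Socs2 under MAR1, and in the STAT6-induced list called genes lie on both sides of 0.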

How the data were processed

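Estimated counts of each gene symbol in 14 libraries were deposited by the authors as a single table; Salmon 1.2.1, DESeq2 1.44.0 and the build GRCm39 are named in the submitters' processing notes, without their order of use. Columns were assigned by sample title. The counts were rounded to whole numbers. The 1 entry without a gene name was left out of totals and tests; it held 0.0137% to 0.913% of a library. One edgeR 4.0.16 quasi-likelihood fit (R 4.3.3) with 5 groups, TMM scaling and edgeR's default filter on low counts covered 20939 genes, and p-values were adjusted over all of them by the Benjamini-Hochberg method. The SE is the absolute log2 fold change divided by the square root of F. The smallest library held 5728994 counts. The p-values reflect the spread between these libraries, which includes counting noise, and the untreated libraries may not be separate mice. The fit had 9 residual degrees of freedom. Data simulated for MAR1 against isotype gave every gene the same spread, the common dispersion of 0.361. They gave back 89.2% of 16-fold, 12.5% of 4-fold and 0% of 2-fold changes, with 2 false calls among 20421 genes. In the real data the spread differs between genes, so these shares and the false calls do not carry over to any given gene.

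Lengths came from GENCODE M21, on an older build. Named pathway genes were the up to 4 with the smallest p per list and comparison averaging 1 CPM or more, except where a count of 5 or fewer is named in full, and Socs3 in the cKO, which was named after its values had been seen. Nearest patterns were sought among genes averaging 5 CPM or more. The members and lists were chosen with earlier results of these data known. Alternatives covered RLE scaling, DESeq2 1.42.0, filters, libraries in the fit, the untreated libraries summed, a replicate block, thinning and each library left out. Figures were drawn with matplotlib 3.10.9.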

Additional observations from a re-analysis of the deposited data

Results flagged for a closer look

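The effect of the deletion (cKO over fl/fl) was compared with that of the antibody (MAR1 over isotype) by an interaction term in the edgeR fit. The difference was called (adjusted p under 0.05) for 8 genes among the members and the listed pathway genes, beside 1667 genes in all, or 7.96% of those tested. For Stat6 the difference of the log2 effects was 1.38, the antibody's being the more negative. It was 3.74 for Crlf2 and 2.27 for Pparg, both lower under MAR1, and 2.27 for Egr2. Crlf2 also lay lower in cKO skin without overlap, at 1.885 to 17.3 CPM, against 38.98 to 45.08 CPM in fl/fl skin. It was not called there. Egr2 moved in opposite directions, each without overlap. It spanned 43.16 to 66.61 CPM in cKO skin, against 14.9 to 31.49 CPM in fl/fl skin. It spanned 22.85 to 46.62 CPM in MAR1 skin, against 53.81 to 95.67 CPM in isotype skin. The difference of the log2 effects was -4.40 for Il2rb, -6.65 for Retnla, -4.92 for Ccl24 and -11.6 for Fcer2a. For these last 4 genes the cKO and fl/fl libraries overlapped, while all 4 lay higher in MAR1 than in isotype skin without overlap. Retnla stood at 233, 125 and 72.9 CPM in MAR1 skin, against 12.2, 4.58 and 8.80 CPM in isotype skin. Ccl24 stood at 58.95, 31.1 and 13.8 CPM, against 3.03, 1.10 and 4.68 CPM. Fcer2a did not exceed 1.04 CPM in either group. Il2rb and Fcer2a followed the spread of lymphocyte markers over the fl/fl libraries, whose part was not tested.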

How the results depend on the processing

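Depth limits the MAR1 libraries most: Il4ra rested on 59.5 estimated counts in the lowest of them. Of the calls made, those of Il4ra, Jak1 and Stat6 between MAR1 and isotype skin held under all 24 alternatives. Those of Il13ra1 and Tyk2 in that comparison did not. Nor did the calls of 3 members in the cKO, of Il13ra2 in isotype skin and of Stat6 in the test of the difference. The cause was not tested in any case.

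Between MAR1 and isotype skin 3 members were called with RLE scaling and 3 with DESeq2. Over the alternatives other than single leave-outs, 9530 to 12222 genes were called. Leaving out 1 library gave 4 to 5 members (7341 to 10772 genes). Il13ra2 reversed, with -0.38 to 0.47. Between cKO and fl/fl skin, against 3 members and 3906 genes, the counts were 1 with no filter, 1 member and 1409 genes with only the groups compared, 1 with the untreated libraries summed, 0 and 656 without fl/fl libraries 1 and 2, and 7 and 5994 with DESeq2. Leaving out 1 library gave 0 to 3 members and 1958 to 4412 genes. Il4ra was -1.81 with no filter, -1.66 with only the groups compared, -1.38 with the untreated libraries summed, -1.51 without fl/fl libraries 1 and 2, and -2.12 to -1.33 with 1 library left out. Without fl/fl libraries 1 and 2, Il13ra1 (-0.16), Il2rg (0.96) and Jak3 (0.66) reversed.

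Between isotype and untreated skin, against 1 member and 644 genes, the counts were 3 and 3553 with only the groups compared, 0 and 50 with the untreated libraries summed, 1443 genes without fl/fl libraries 1 and 2, and 2214 with DESeq2. Leaving out 1 library gave 0 to 1 members and 108 to 1320 genes. Jak1 reversed with the untreated libraries summed (0.079), without fl/fl libraries 1 and 2 (0.17) and with 1 library left out (-0.16 to 0.41), as did Il2rg (-0.87 to 0.49) and Jak3 (-1.41 to 0.38). Between fl/fl and untreated skin, against 0 members and 360 genes, the counts were 0 genes with only the groups compared, 549 with the untreated libraries summed, 982 without fl/fl libraries 1 and 2, 1 member after thinning, and 1 member and 2124 genes with DESeq2. Leaving out 1 library gave 0 to 1 members and 65 to 736 genes. Jak1 reversed with RLE scaling (0.0011) and DESeq2 (0.0011), and Stat6 with the untreated libraries summed (-0.12). Without fl/fl libraries 1 and 2, Il13ra1 (0.30), Il2rg (-1.66) and Jak3 (-1.56) reversed. With 1 library left out, Il13ra1 spanned -0.79 to 0.096, Jak1 -0.37 to 0.013, Jak3 -0.16 to 1.49 and Stat6 -0.11 to 0.28.

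Between fl/fl and isotype skin, against 0 members and 1094 genes, the counts were 455 with only the groups compared, 2699 with the untreated libraries summed, 59 after thinning, 1 without fl/fl libraries 1 and 2, and 2 members and 3396 genes with DESeq2. Leaving out 1 library gave 0 to 2 members and 0 to 3176 genes. Stat6 reversed without the untreated libraries (-0.0092), with only the groups compared (-0.0066), with the untreated libraries summed (-0.47) and without fl/fl libraries 1 and 2 (-0.0074). With the untreated libraries summed, Jak1 (-0.44) and Tyk2 (-0.037) reversed, and without fl/fl libraries 1 and 2 so did Jak1 (-0.71), Tyk2 (-0.25), Il2rg (-1.37) and Jak3 (-0.86). With 1 library left out, Il4ra spanned -0.58 to 0.048, Jak1 -0.53 to 0.14, Stat6 -0.55 to 0.10 and Tyk2 -0.16 to 0.51.

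In the test of the difference, against 1 member and 1667 genes, the counts were 0 and 904 with RLE scaling, 0 members with no filter, 0 and 998 without the untreated libraries and with only the groups compared, 3 and 3768 with the untreated libraries summed, 0 members after thinning, 0 and 7 without fl/fl libraries 1 and 2, and 3730 genes with DESeq2. Leaving out 1 library gave 0 to 3 members and 1 to 4863 genes. Tyk2 reversed with RLE scaling (-0.38), without the untreated libraries and with only the groups compared (-0.20 each), after thinning (-0.14) and with DESeq2 (-0.37). Without fl/fl libraries 1 and 2, Il2rg (2.05) and Jak3 (1.56) reversed. With 1 library left out, Il2rg spanned -1.91 to 0.061, Jak3 -1.19 to 0.15 and Tyk2 -0.062 to 0.73.

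No sign was seen that the replicate numbers pair the samples. Over genes, deviations of same-numbered libraries correlated at -0.144, -0.0942 and 0.0632 between MAR1 and isotype, and at 0.0771, 0.0324 and -0.0562 between cKO and fl/fl. Libraries of unlike number correlated at -0.158 to 0.198 and at -0.2 to 0.169. With 3 libraries in a group, whose deviations cancel out, this check cannot exclude pairing. With the number as a replicate block, 253 genes were called between isotype and untreated skin, 224 between fl/fl and untreated skin, 175 between fl/fl and isotype skin, and 537 genes and 0 members in the test of the difference. Jak1 reversed in isotype (0.14) and fl/fl (0.15) against untreated skin.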
